A study of Mus musculus with 6 samples.

Results

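The 35 genes examined here are germ-cell and meiosis genes, matched by symbol to the gene identifiers of the count tables. Their list was drawn up with earlier results of these data known. All 35 were found among the 54532 identifiers. By role, 14 belong to the piRNA pathway and its cytoplasmic granules, 11 to the synaptonemal complex and meiotic recombination, and 3 to meiotic cohesin, and 7 are other germ-cell genes. They were followed in RNA sequencing libraries of whole mouse brain at postnatal day 14 on the C57BL/6J background, with 3 libraries per group. Control mice carried the genotype Mphosph8fl/+ Nestin-Cre+ per the labels, that is 1 floxed and 1 unmodified allele, whereas the study's text names only the transgene for them. Mutant mice (Mphosph8∆n) were Mphosph8fl/fl Nestin-Cre+, so both groups carried the Cre transgene. Nestin-Cre is active in neural progenitors and their descendants, and cells of other origin in a whole brain, such as microglia and vessel cells, keep the gene. Where Cre acts, the floxed allele of the controls is deleted as well, and their titles carry the letters HET. The comparison is therefore of mutant with heterozygous brains, not with brains that have both alleles intact. MPP8, the product of Mphosph8, is a subunit of the HUSH complex, which represses transcription at chromatin marked by histone H3 lysine 9 trimethylation. The comparison shows how much RNA of these germline genes each group of brains held.

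Many genes of the germ line are kept off in the body's other tissues by DNA methylation of CpG-rich promoters, laid down early in embryonic development. Repressor complexes that contain E2F6 and MGA with its partner MAX, which bind GCGGGA-type and CACGTG (E-box) motifs respectively, recruit further silencing to a number of them. piRNAs are small RNAs bound by PIWI proteins that guide silencing of transposons in male germ cells. The synaptonemal complex is the protein zipper that holds paired chromosomes together in meiosis, and meiotic cohesins form the axes on which it is built. DNA methylation was not measured in these libraries, so the term methylation-silenced could not be checked directly. What could be checked was the RNA level, and by that measure most of the list was not silent in control brains. With silence set at a mean below 0.1 CPM (counts per 1000000 counts of a library, with the library size scaled by TMM) over the 3 control libraries, 8 of the 35 genes (22.9%) were silent, against 26.4% of 21995 protein-coding genes. A gene that is not silent by this rule can still be low, and 19 of the 35 had too few counts for the test below.

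To show the kind of promoter that these genes have, the 250 bases upstream of the RefSeq start (GRCm38.p6 coordinates) are given 5′ to 3′ for 4 of them, with each CpG dinucleotide in capitals. Mael and Hormad1 stand for genes that were silent in control brains, Dazl for a gene with few but steady counts, and Tdrkh for the gene with the highest level.
Mael (chr1:166238745-166238994, minus strand): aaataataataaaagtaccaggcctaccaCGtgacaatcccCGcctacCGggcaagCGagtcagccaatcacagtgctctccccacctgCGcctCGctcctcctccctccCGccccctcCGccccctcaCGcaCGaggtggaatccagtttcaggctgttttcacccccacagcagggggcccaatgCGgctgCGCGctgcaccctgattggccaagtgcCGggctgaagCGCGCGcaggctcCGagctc
Hormad1 (chr3:95559427-95559676, plus strand): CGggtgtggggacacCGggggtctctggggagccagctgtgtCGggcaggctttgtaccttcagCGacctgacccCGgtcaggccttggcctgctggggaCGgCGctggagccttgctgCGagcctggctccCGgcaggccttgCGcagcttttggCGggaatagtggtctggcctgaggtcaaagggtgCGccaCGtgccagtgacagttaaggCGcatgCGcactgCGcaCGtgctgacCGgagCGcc
Dazl (chr17:50293621-50293870, minus strand): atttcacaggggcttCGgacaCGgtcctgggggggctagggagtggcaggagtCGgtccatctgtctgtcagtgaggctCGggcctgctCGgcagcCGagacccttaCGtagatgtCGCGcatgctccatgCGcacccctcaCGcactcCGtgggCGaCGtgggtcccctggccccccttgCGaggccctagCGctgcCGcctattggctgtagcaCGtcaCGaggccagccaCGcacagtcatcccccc
Tdrkh (chr3:94412994-94413243, plus strand): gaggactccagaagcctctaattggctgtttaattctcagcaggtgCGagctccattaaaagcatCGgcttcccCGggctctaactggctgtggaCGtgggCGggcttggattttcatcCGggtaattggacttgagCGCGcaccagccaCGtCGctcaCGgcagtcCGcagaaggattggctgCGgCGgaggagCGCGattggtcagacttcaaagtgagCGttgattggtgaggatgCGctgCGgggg
The sequences of Mael and Hormad1 hold 18 and 19 CpG and both motifs, that of Dazl 20 CpG and neither motif, and that of Tdrkh 19 CpG and neither motif. Promoters with a similar number of CpG thus belonged to genes at 0 or 1 count over the controls and to a gene with 593 to 755 counts per library.

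Depth ran from 12956880 to 15223424 counts per library. Mphosph8 (ENSMUSG00000079184, chromosome 14, 56668248 to 56697430) was at 55.8, 48.6 and 70.7 CPM in the controls and 33.1, 27.2 and 26.5 CPM in the mutants. All mutant libraries were below all control libraries, with -1.02 ± 0.12 (SE) for the log2 fold change and 0.000157 for the edgeR adjusted p. Reads outside the floxed exon are part of these counts, and the controls are heterozygous where Cre acts. Control replicate 3 stood apart in sex-linked genes, with 3641 counts over the Y-linked genes Ddx3y, Eif2s3y, Kdm5d and Uty against 0 or 1 elsewhere, and with 27 counts of Xist against 11130 to 17697. Leaving that library out is therefore given beside the calls over all genes, Mphosph8, Syce1, Rec8, Stag3, Tdrd6 and Terb1. Over all 16731 genes tested, 59 (0.353%) were called higher in mutant brains, where called means an adjusted p under 0.05 and a fold change over 2. The 1 gene (0.00598%) that was called lower was Mphosph8 itself. Without control replicate 3, 45 genes were called higher and 2 lower. Mphosph8 was then at a log2 fold change of -0.85, short of the 2-fold threshold, with an edgeR adjusted p of 0.000943.

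None of the 35 germline genes was called in either direction. Of the 35, 16 had enough counts to be tested and 19 did not. Among the 16, 0 had an edgeR adjusted p under 0.05, against 0.532% of all tested genes higher and 0.0956% lower at that threshold. The cohesin genes Rec8 and Stag3 had an unadjusted p under 0.05, both with more RNA in mutant brains, where 4.09% of all tested genes did so in that direction. DESeq2 and limma-voom also called 0 of them and gave an unadjusted p under 0.05 to these same 2 genes. The median log2 fold change of the 16 was 0.17, and that of all tested genes was -0.0073. It was positive for 11 and negative for 5 of them, from -0.33 for Tex14 to 0.53 for Piwil2. Of all 16731 tested genes, 7967 were positive and 8764 negative. The 95% interval stayed within a 2-fold change in either direction for 14 genes and reached past it for Piwil2 and Tex14. It stayed within for 15309 of all 16731 tested genes. The RNA of every mutant library was above that of every control library for 2 of the 16, Rec8 and Dazl, and below it for 0, where 6.23% and 5.42% of all tested genes were so separated.

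**Figure D1:**
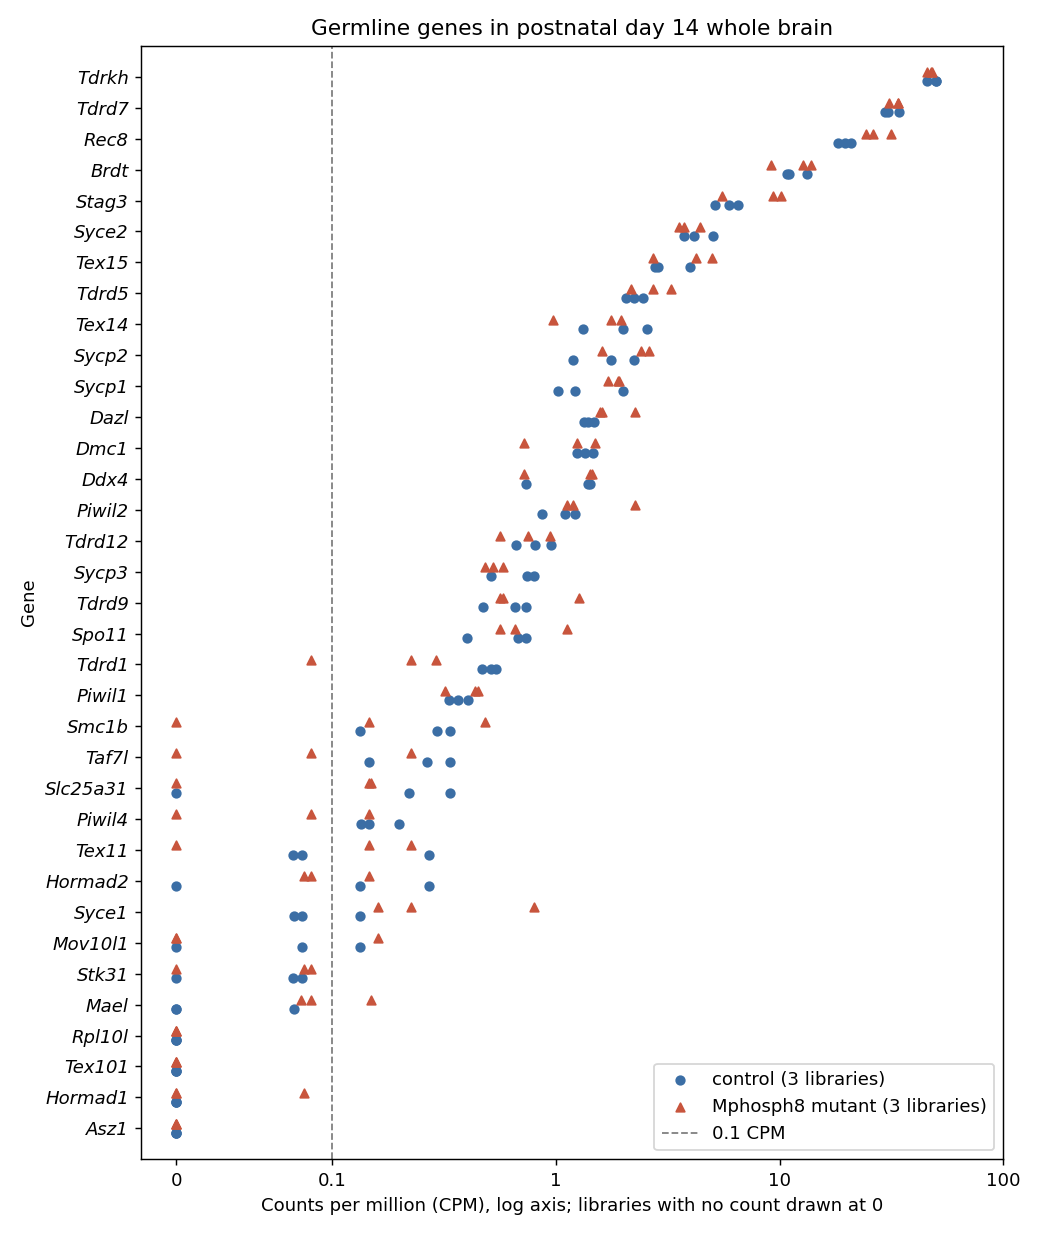
Level of each of the 35 germline genes in every library, in CPM on a log axis with libraries without a count drawn at 0, for 3 control (circles) and 3 Mphosph8 mutant (triangles) brains. The genes run from Tdrkh near 50 CPM down to Asz1, Tex101 and Rpl10l without a count, and the symbols of both groups overlap for most genes. The dashed line marks 0.1 CPM.

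**Figure D2:**
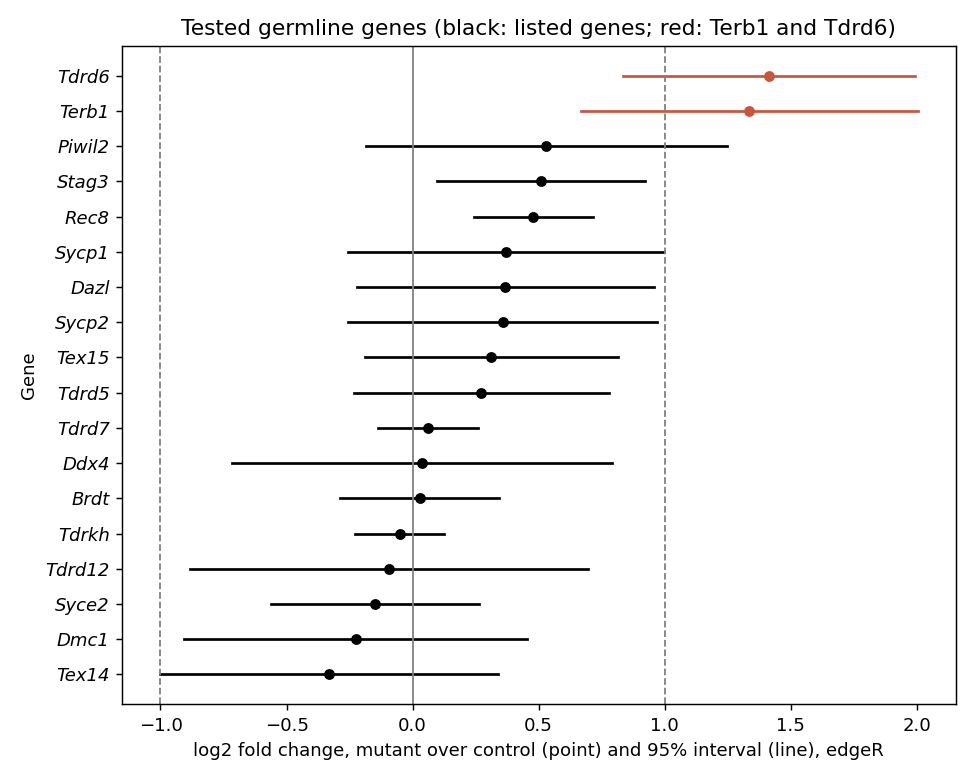
The log2 fold change (mutant over control) of the 16 tested germline genes (black), with its 95% interval from edgeR, and of Terb1 and Tdrd6 from the list of other germline genes (red). Dashed lines mark a 2-fold change. The black points lie between -0.33 and 0.53, and the interval lies wholly above 0 for Stag3 and Rec8.

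Among the 14 genes of the piRNA pathway, 6 were tested and 0 passed the threshold. Tdrkh (ENSMUSG00000041912, chromosome 3, 94413273 to 94434668) encodes a Tudor-domain protein that anchors PIWI proteins at the mitochondrial surface, and it had 755, 621 and 745 counts in control and 593, 643 and 627 in mutant brains. Its levels overlapped, at 48.7 ± 2.75 and 47.0 ± 1.26 CPM (SD, n = 3), and its log2 fold change of -0.05 had a 95% interval from -0.23 to 0.13. Of its exonic bases, 2255 lie opposite exons of Oaz3, and the strand setting of the counting is not given in the sources used here. Tdrd7, a Tudor-domain gene known also for a role in the lens, had 517, 405 and 451 against 387, 454 and 464 counts. The log2 fold change of Tdrd7 was 0.06 ± 0.09 (SE), with an interval from -0.14 to 0.26. Per kilobase of exon, Tdrd7 at 7.96 and Tdrkh at 7.92 CPM had the highest control levels of the 35 genes, above the median of 4.65 CPM per kilobase over all genes tested.

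The remaining tested genes of this pathway were low. Tdrd5, needed for piRNA production in spermatocytes, had 37, 28 and 33 counts in control and 34, 29 and 45 in mutant brains. Tdrd12, a Tudor-domain protein with a helicase domain, had 10, 13 and 12 against 7, 10 and 13 counts. Ddx4, the mouse homologue of the RNA helicase Vasa and a standard germ-cell marker, had 11, 19 and 21 against 9, 19 and 20 counts. The groups overlapped for each of these genes. Piwil2 (ENSMUSG00000033644, chromosome 14, 70372477 to 70429383) encodes the PIWI protein MILI and had 13, 15 and 18 counts in control and 14, 16 and 31 in mutant brains. Control libraries averaged 1.06 ± 0.179 CPM and mutant libraries 1.52 ± 0.634 CPM (SD, n = 3), and mutant replicate 3 alone lay above all control libraries by more than their range. The log2 fold change of 0.53 ± 0.34 (SE) of Piwil2 had an edgeR adjusted p of 0.897, and it was 0.13 without mutant replicate 3.

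The other 8 genes of the pathway were too low for the test. Piwil1, which encodes the PIWI protein MIWI, had 5, 5 and 6 counts in control and 4, 6 and 6 in mutant brains. Piwil4, which encodes MIWI2, had 3, 2 and 2 against 1, 0 and 2. Tdrd9, a partner of MIWI2 with a helicase domain, had 11, 9 and 7 against 7, 17 and 8. The counts of the groups overlapped for these 3 genes. Tdrd1 (ENSMUSG00000025081, chromosome 19, 56826209 to 56870012), a Tudor-domain scaffold of the granules, had 7, 7 and 8 counts in control and 1, 3 and 4 in mutant brains. All mutant libraries were thus below all control libraries for Tdrd1, and the ratio of count rates was 0.399 with an exact 95% counting interval from 0.154 to 0.930, which covers counting error only. Fitted by edgeR with low counts kept, it had an adjusted p of 0.839, at an unadjusted p of 0.0469.

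The silent genes of the pathway were Mael, Asz1, Mov10l1 and Stk31. Mael, a component of the granules, had 0, 0 and 1 counts in control and 1, 2 and 1 in mutant brains. Mov10l1, the helicase that feeds precursors into piRNA processing, had 2, 1 and 0 against 2, 0 and 0. Stk31, a Tudor-domain kinase, had 1, 1 and 0 against 1, 1 and 0, and Asz1, a mitochondrial scaffold of the granules, had 0 in all 6 libraries. A total of 3 counts over a group corresponds to 0.069 CPM in the controls and 0.0757 CPM in the mutants, which is the level that a count of 0 allows.

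Among the 11 genes of the synaptonemal complex and recombination, 5 were tested and 0 passed the threshold. Syce2, a central-element protein, was the highest of them in the controls, with 62, 51 and 75 counts in control and 55, 50 and 49 in mutant brains, with a log2 fold change of -0.15 ± 0.20 (SE). Tex15, which acts in recombination and in piRNA-directed silencing, had 43, 38 and 59 against 34, 67 and 58 counts, a difference of 0.31 on the log2 scale (edgeR adjusted p 0.916). Tex15 holds 73.1% of its exonic bases in a single exon of 7035 bases. Sycp2, part of the axial elements, had 18, 24 and 33 counts in control and 20, 35 and 33 in mutant brains. Sycp1, the transverse filament that bridges the axes, had 30, 14 and 18 against 24, 23 and 26 counts, and 5.47% of its 50-base words also occur in transcripts of other genes. Dmc1, the meiotic strand-exchange recombinase, had 22, 17 and 20 against 9, 20 and 17 counts. The groups overlapped for all 5 of these genes, and their log2 fold changes lay between -0.23 and 0.37.

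Of the 6 genes of this group below the test's limit, Spo11, which makes the double-strand breaks of meiosis, had 6, 10 and 10 counts in control and 7, 15 and 9 in mutant brains. Sycp3, an axial-element protein, had 12, 7 and 11 against 6, 7 and 8, and 660 of its exonic bases lie opposite exons of Chpt1. Tex11, an X-linked crossover gene, had 1, 1 and 4 against 0, 3 and 2. The axis protein Hormad2 had 2, 0 and 4 against 1, 1 and 2. Its relative Hormad1 was silent, with 0 counts in the controls and 0, 1 and 0 in the mutants, and 22.9% of its words are shared with other genes. No separation of the groups was seen for any of these 5 genes.

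Syce1 was the only gene of the 35 that left silence, defined as silent in controls, with at least 0.1 CPM in every mutant library and every mutant library above every control library. Syce1 (ENSMUSG00000025480, chromosome 7, 140777229 to 140787852, minus strand) encodes a central-element protein of the synaptonemal complex. It had 2, 1 and 1 counts in control and 2, 3 and 11 counts in mutant brains, or 0.133, 0.0732 and 0.0675 CPM against 0.16, 0.224 and 0.80 CPM. Control replicate 1 and mutant replicate 1 each held 2 counts, so their order came from library size alone, and most mutant counts were in mutant replicate 3. The ratio of count rates was 4.39, with an exact 95% counting interval from 1.42 to 18.0. Without a filter the log2 fold change of Syce1 was 2.02 with an unadjusted p of 0.0145 and an edgeR adjusted p of 0.602. Of 5807 protein-coding genes silent in controls, 28 (0.482%) left silence by the same rule. With silence set at 0.05 CPM the gene that left it was Mael in place of Syce1, and at 0.2 CPM there was none. There was also none without control replicate 2 or without control replicate 3. For Mael, control replicate 3 and mutant replicates 1 and 3 each held 1 count, so their order too came from library size alone.

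**Figure D3:**
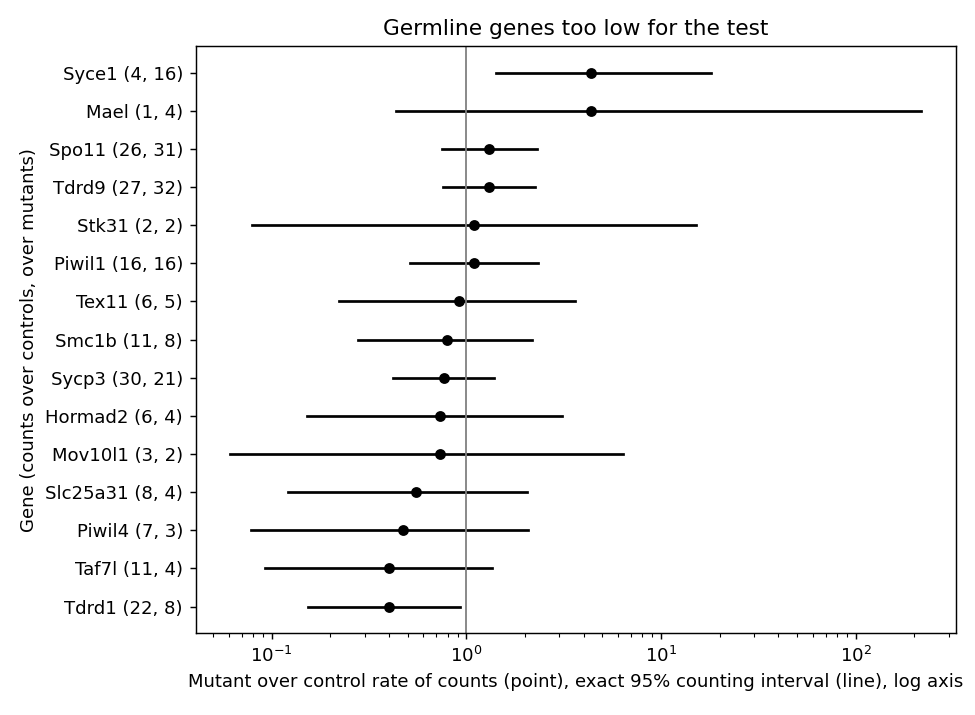
Ratio of the mutant to the control rate of counts for the germline genes too low for the test, with the exact 95% counting interval on a log axis, and in brackets the counts summed over the 3 control and the 3 mutant libraries. Only the interval of Syce1 lies above 1 and only that of Tdrd1 below it. Hormad1 with 1 count and the genes without a count are not drawn.

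Taken over all 19 untested genes, the counts summed to 58, 53 and 69 in control and 40, 64 and 57 in mutant libraries, and the groups overlapped. Of the 16 with at least 1 count, the counting interval of the rate ratio included 1 for 14, lay above 1 for Syce1 and lay below 1 for Tdrd1. These intervals leave out variation between brains. The share of all low genes with such intervals, or with groups separated as for Tdrd1, is not given here. In the edgeR fit without a filter, which covered 32278 genes and called 0.263% of them higher, 0 of the 35 genes were called.

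For scale, 4 genes silent in controls were called higher in the main fit, Zfp990 with 0 control and 65 mutant counts, Gm13136 with 2 and 65, Smarca5-ps with 1 and 64, and Gm26796 with 2 and 46. They are named because they were called and passed the count filter through the mutant libraries, so they do not show how often a release of that size would be called. Syce1 had 16 counts over the mutant libraries, and the other silent germline genes had at most 4. Of the 28 protein-coding genes that left silence, 1 was called.

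Of the 3 meiotic cohesin genes, 2 were tested, and these were Rec8 and Stag3, with the smallest unadjusted p among the 16 tested germline genes. Rec8 (ENSMUSG00000002324, chromosome 14, 55618037 to 55625395, plus strand) encodes the meiosis-specific kleisin that closes the cohesin ring. It had 275, 286 and 291 counts in control and 303, 350 and 434 counts in mutant brains, or 18.3, 20.9 and 19.6 CPM against 24.2, 26.1 and 31.6 CPM. All mutant libraries were above all control libraries, with means of 19.6 ± 1.33 and 27.3 ± 3.8 CPM (SD, n = 3). The log2 fold change of Rec8 was 0.48 ± 0.11 (SE), a 1.39-fold difference whose 95% interval from 0.24 to 0.72 excludes a 2-fold change. At an edgeR adjusted p of 0.0702, with an unadjusted p of 0.0005, it missed the threshold. The adjusted p was 0.00607 without a filter on low counts, 0.0457 with the replicate number as a block and 0.0123 without mutant replicate 1, whereas without mutant replicate 3 it was 0.57 at a log2 fold change of 0.36. Without control replicate 3, the library that stood apart, the log2 fold change was 0.48 with an adjusted p of 0.202. At 6.69 CPM per kilobase in controls Rec8 was above the median tested gene. The targeted gene Mphosph8 lies near Rec8 on chromosome 14, at 56668248 to 56697430. The groups differ in the number of floxed alleles there, and a part of this linkage in the Rec8 level was not tested.

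Stag3 (ENSMUSG00000036928, chromosome 5, 138280240 to 138312393, plus strand) encodes the meiosis-specific STAG subunit, a partner of REC8. It had 77, 81 and 97 counts in control and 69, 125 and 139 in mutant brains. Mutant replicates 2 and 3, at 9.33 and 10.1 CPM, were above the control range of 5.12 to 6.55 CPM, and mutant replicate 1 at 5.52 CPM was within it. For Stag3 the log2 fold change of 0.51 ± 0.20 (SE) had an edgeR adjusted p of 0.553 and an unadjusted p of 0.0186. Without mutant replicate 1 it was 0.73 with an adjusted p of 0.0239, without mutant replicate 2 it was 0.42 with 0.695, without mutant replicate 3 it was 0.35 with 0.999, and without control replicate 3 it was 0.60 with 0.612. The unadjusted p was no longer under 0.05 without control replicate 1, mutant replicate 2 or mutant replicate 3. The remaining subunit gene Smc1b had 2, 4 and 5 counts in control and 6, 0 and 2 in mutant brains, with overlapping groups.

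**Figure D4:**
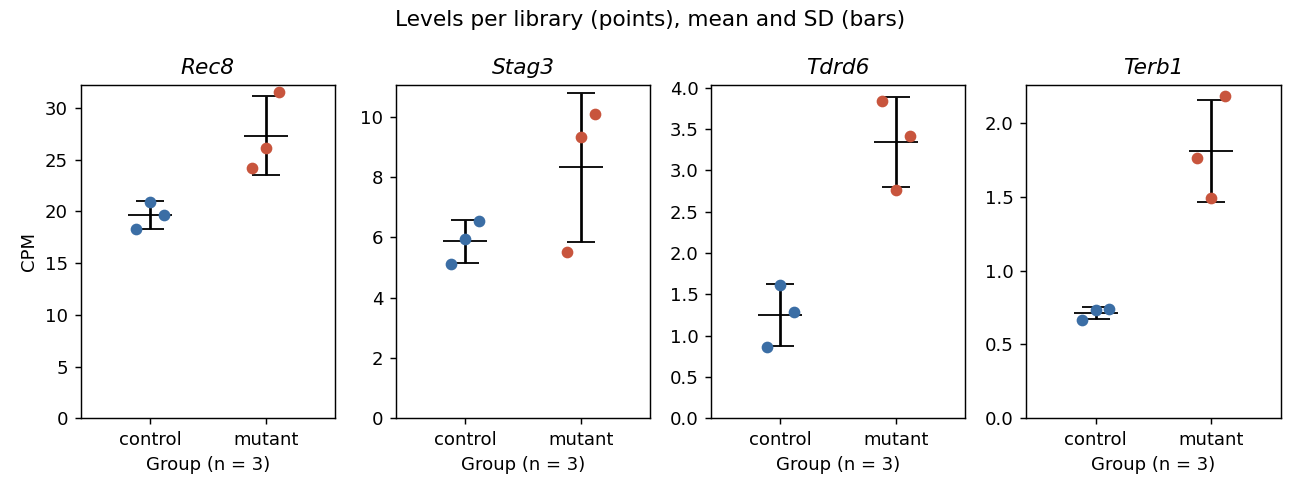
CPM per library of Rec8, Stag3, Tdrd6 and Terb1 in 3 control and 3 Mphosph8 mutant brains (points), with the mean and SD (bars), each on its own axis from 0. The groups are apart for Rec8, Tdrd6 and Terb1, and for Stag3 a mutant library lies within the control range.

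Of the 7 other germ-cell genes, 3 were tested and 0 passed the threshold. Brdt, a bromodomain protein of spermatocytes and spermatids, had 200, 148 and 163 counts in control and 115, 171 and 190 in mutant brains, with a log2 fold change of 0.03 and a 95% interval from -0.29 to 0.34. Dazl (ENSMUSG00000010592, chromosome 17, 50279395 to 50293636), an RNA-binding protein of germ cells from their early stages, had 20, 19 and 22 against 20, 21 and 31 counts. In CPM all mutant libraries of Dazl were above all control libraries, at 1.57 to 2.25 against 1.33 to 1.48, and the log2 fold change of 0.37 ± 0.28 (SE) had an edgeR adjusted p of 0.916. Tex14, needed for the bridges between dividing germ cells, had 30, 18 and 38 against 22, 13 and 27 counts and a log2 fold change of -0.33 ± 0.32 (SE).

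The 4 genes of this group that were not tested gave few or no counts. Taf7l, a germ-cell paralogue of a TFIID subunit, had 4, 2 and 5 counts in control and 1, 3 and 0 in mutant brains. Slc25a31, a germ-cell ADP/ATP carrier, had 0, 3 and 5 against 0, 2 and 2. Tex101, a surface protein of germ cells, and Rpl10l, a single-exon copy of the ribosomal protein gene Rpl10, had 0 counts in all 6 libraries. Together with Asz1 these were the 3 genes of the list without a count.

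To place the list among germline genes outside it, 53 further germline genes were counted. Their list was also chosen with earlier results of these data known. Of the 53, 20 were silent in controls, of which 0 left silence. Another 20 were tested, 13 with a positive and 7 with a negative log2 fold change and a median of 0.05. Called higher was 1 of these 20, where 0.353% of all tested genes were. The groups were fully separated upward for 3 and downward for 0, against 6.23% and 5.42% of all tested genes. The only called gene was Tdrd6 (ENSMUSG00000040140, chromosome 17, 43615335 to 43630299, minus strand), a Tudor-domain gene of the granules of spermatids. Tdrd6 had 13, 22 and 19 counts in control and 48, 37 and 47 in mutant brains, or 1.25 ± 0.374 and 3.34 ± 0.542 CPM (SD, n = 3), with no overlap. The difference of 1.42 ± 0.27 (SE) on the log2 scale passed the test (edgeR adjusted p 0.017). The call was lost without control replicate 1, at an adjusted p of 0.115, without control replicate 3, at 0.0807, and without mutant replicate 3, at 0.0684. Of the exonic bases of Tdrd6, 87.7% lie in a single exon of 6193 bases, and none of its 50-base words occur in other genes. The Tudor-domain genes of the list itself, Tdrd1, Tdrd5, Tdrd7, Tdrd9, Tdrd12 and Tdrkh, were not called, and the difference between them and Tdrd6 was not tested.

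Terb1 and Mlh3 had the next smallest p among these 53 genes. Terb1 (chromosome 8, 104446719 to 104509910), which ties telomeres to the nuclear envelope in meiosis, had 10, 10 and 11 counts in control and 22, 20 and 30 in mutant brains, with no overlap. Its log2 fold change of 1.34 ± 0.32 (SE) had an edgeR adjusted p of 0.0764, and the fit without a filter on low counts, at 0.0184, was the only 1 of 12 alternative fits under 0.05. The adjusted p was 0.40 with DESeq2, 0.508 without mutant replicate 3 and 0.241 without control replicate 3. Mlh3, a mismatch repair gene of meiotic crossovers, averaged 17.3 ± 1.54 CPM in the control and 21.2 ± 0.948 CPM in the mutant libraries (SD, n = 3), and its log2 fold change of 0.29 ± 0.11 (SE) had an adjusted p of 0.483. Of 13 genes of haploid spermatids 8 had no count in any library, 1 was tested and 0 were called.

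The genes that encode repressors of germline promoters were measured in the same libraries. All 14 were tested and 0 had an edgeR adjusted p under 0.05. For 1 of them the unadjusted p was under 0.05, with more RNA in mutant brains, where 4.09% of all tested genes did so in that direction. Dnmt1, the maintenance DNA methyltransferase, averaged 65.8 ± 3.19 CPM in the control libraries and 64.7 ± 1.57 CPM in those of mutants (SD, n = 3), a difference of -0.02 ± 0.08 (SE) on the log2 scale. E2f6 ranged from 28.5 to 31.5 CPM in controls and from 29.7 to 30.5 CPM in mutant brains, with a log2 fold change of -0.02 ± 0.09 (SE).

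Among the marker lists of brain cell types, all 8 oligodendrocyte genes had a negative log2 fold change with a median of -0.47, 3 of them at an edgeR adjusted p under 0.05. Their summed level ran from 21889 to 26217 CPM in the controls and from 17339 to 20113 CPM in the mutants. In bulk tissue fewer cells of a type and less RNA per cell cannot be told apart. The 4 choroid plexus markers also summed to less in every mutant than in every control library, at 1053 to 1260 CPM against 1426 to 1719 CPM. That sum was almost all Ttr, at a control mean of 1498 CPM against 11.5 to 19.7 CPM for the other markers. Only Ttr was lower in every mutant library, with an edgeR adjusted p of 0.0764, or 0.000809 without a filter on low counts. Of the 4 log2 fold changes, 3 were negative and 1 was positive. The part of cell composition in the levels of Rec8, Stag3 and Syce1 was not tested. The neuron, astrocyte, microglia, ependymal and choroid plexus lists held 0 genes at an adjusted p under 0.05. The ependymal markers summed to 34.6 to 43.0 CPM in the controls and 38.2 to 44.5 CPM in the mutants.

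Promoter windows of 300 bases, from 250 before to 50 after the RefSeq start, were matched to 31 of the 35 genes, all but Piwil2, Tex11, Tex15 and Spo11. They held a median of 19 CpG, from 4 for the outermost window of Tdrd7 to 48 for Tdrd5, against a median of 7 over all 27025 promoters and of 22 over the 11883 promoters with at least 10 CpG. A second start of Tdrd7 has a window with 32 CpG. The letters GCGGGA, searched on both strands, were in 14 windows (45.2%), against 20.1% of all promoters and 40.3% of those with at least 10 CpG. The letters CACGTG were also in 14 windows (45.2%), against 7.24% and 11.1%, and 7 windows (22.6%) held both, against 2.05% and 4.41%. Silent and other genes both held these features. The median was 19.5 CpG in the 8 silent genes and 19 in the other 23 with a window. A difference between these classes was not tested, and the 23 include genes near the 0.1 CPM limit, such as Hormad2 at 0.134 CPM. GCGGGA was in 3 of the 8 and 11 of the 23, and CACGTG in 4 of the 8 and 10 of the 23. The window of Syce1 has 14 CpG and neither motif, that of Rec8 18 CpG and GCGGGA, and that of Stag3 30 CpG and both motifs. A match is a description of these letters and not a site of binding.

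**Figure D5:**
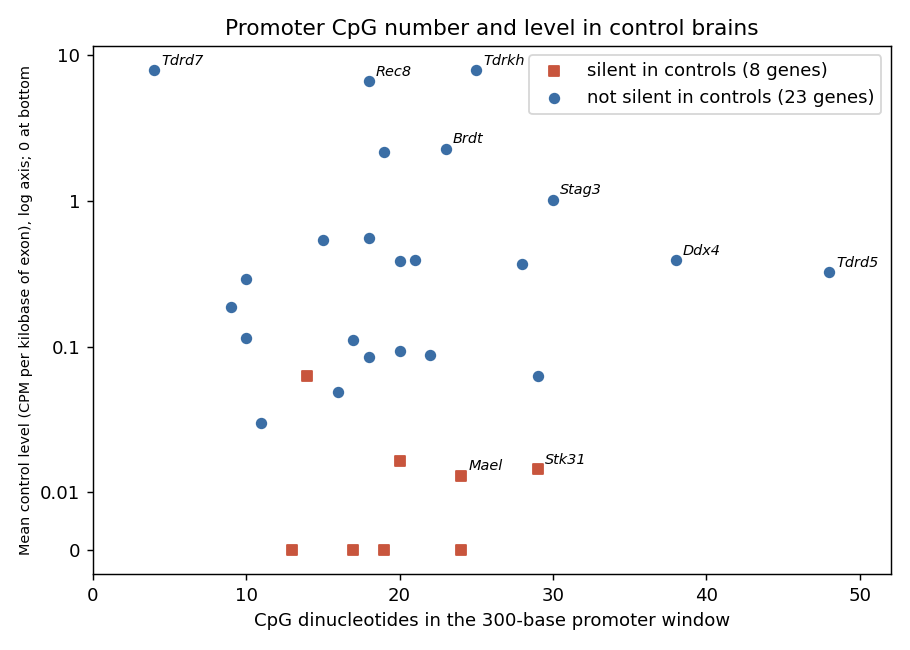
CpG dinucleotides in the 300-base promoter window against the mean control level in CPM per kilobase of exon (log axis, 0 drawn at the bottom) for the 31 germline genes with a window. The 8 silent genes (squares) have 13 to 29 CpG, within the range of the 23 others (circles).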

How the data were processed

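Each deposited table holds raw read counts per Ensembl gene for 1 of the 6 libraries, not normalised. The authors selected polyA RNA and sequenced 50-base single reads. These were trimmed (Trim Galore 0.5.0), cleared of abundant sequences (Bowtie2 2.3.4.1), aligned to GRCm38 by STAR and counted by featureCounts (Subread 1.6.2). The strand setting is not given in the sources used here, and reads of genes with copies elsewhere may have been lost or split in counting. Symbols and exons were taken from GENCODE M21 (GRCm38), which matched 54495 of the 54532 identifiers, and promoter windows from RefSeq.

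Counts were fitted with the edgeR 4.0.16 quasi-likelihood F test (R 4.3.3) after filterByExpr, with TMM scaling and a term for genotype alone. P-values were adjusted by the Benjamini-Hochberg method over all 16731 genes tested, and a called gene had an adjusted p under 0.05 and a fold change over 2. Standard errors and 95% intervals were derived from the F statistic, and CPM used the effective library size. Levels per kilobase divide CPM by exonic length. For untested genes an exact binomial interval of the rate ratio was computed. The exact 2-sided intervals cover counting error only, since reads carry no molecular identifiers. Alternatives were DESeq2 1.42.0, limma-voom (limma 3.58.1), RLE size factors, no filter or a filter of 1 CPM in 3 libraries, a block for the replicate number, leaving out each library, no fold threshold, and silence at 0.05 or 0.2 CPM. The fit was tested on simulated counts. Replicates are separate mouse brains as far as the labels tell, and libraries of 1 group varied beyond sampling noise (chi-square per degree of freedom 3.42 to 12.3).

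The members and the gene lists were chosen with earlier results of these data known. The genes named are Mphosph8, all 35 members, any called gene and the 3 genes with the smallest p among the other germline genes, any gene past the adjusted threshold, Dnmt1 and E2f6 among the repressors, and only counts for the remaining lists. Ttr is named besides, because it made up most of the choroid plexus sum. No test was made over a list as a whole.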

Additional observations from a re-analysis of the deposited data

How the results depend on the processing

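Limits were set by depth, since 19 of the 35 germline genes had too few counts for the test, and by 3 libraries per group. In each of the 12 alternative fits, and with no fold threshold, 0 of the 35 were called higher or lower, and 6 to 12 of them were silent in controls at the other thresholds and with libraries left out. The count that left silence was 0 at 0.2 CPM and ranged from 0 to 1 with each library left out. Genes called lower over all those tested numbered 2 with DESeq2, 11 without a filter, 16 with no fold threshold, and 0 to 5 with each library left out. Genes called higher numbered 89 with no fold threshold. Other germline genes called higher numbered 2 without a filter, and 0 to 1 with each library left out. With each library left out, the log2 fold change turned direction for Tdrd12 (from -0.29 to 0.071), Ddx4 (-0.22 to 0.29), Dmc1 (-0.45 to 0.0077) and Brdt (-0.092 to 0.18), each of them uncalled. The cause was not tested in any of these cases. The log2 fold change of Mphosph8 ranged from -1.13 to -0.85, with an adjusted p under 0.05 in every fit.

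Replicate numbers did not pair the libraries, as the correlations of same-numbered deviations were 0.104, -0.047 and 0.080. Under the replicate block, calls in the lower direction numbered 2, 0 of the 35 germline genes were called in either direction, and Rec8 had an adjusted p of 0.0457.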
